A study of Homo sapiens with 16 samples.

Results

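The genes described are 10 members of the interleukin-6 (IL-6) cytokine family and of the signalling chain behind it: the ligands IL6, IL11 and LIF, the receptor chains IL6R, IL6ST, LIFR and OSMR, the kinase JAK1, the transcription factor STAT3 and the feedback inhibitor SOCS3. They were chosen by gene symbol, and all 10 were found among the 18227 genes measured. The study describes a knockout of ZC3H12A, the gene of the RNase Regnase-1, in A549 and H2023, both long-established lines of human lung cancer (non-small cell type). RNA sequencing covered 16 libraries, 2 in each of 8 groups. In each line, wild-type cells and cells labelled ZC3H12A knockout were harvested after 3 days in normal culture or after 7 days under stem-cell-enriched conditions (oncosphere culture). Culture type and days in culture changed together. The titles of the knockout libraries name 1 clone in each line, so a difference from wild type holds the edit together with whatever else sets that clone apart. Nothing in the labels says whether replicates were separate cultures, so p-values measure the spread between these libraries, which may be technical.

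Cytokines of this family signal through IL6ST (gp130), a receptor chain that almost every cell type carries. Which cytokine a cell can answer is set by its partner chains: IL6R for IL-6, IL11RA for interleukin-11, LIFR for leukaemia inhibitory factor (LIF), and OSMR or LIFR for oncostatin M. The paired receptors activate JAK1, which phosphorylates STAT3, and STAT3 in turn induces SOCS3, an inhibitor that binds the receptor complex and closes the loop. In lung cancer cells this axis is known for autocrine growth and survival signalling, and Regnase-1 is known for cutting the mRNA of IL6 and other inflammatory genes. All measurements here are of mRNA, so STAT3 phosphorylation and secreted cytokine were not measured. The members are protein-coding genes (GENCODE 29, GRCh38). The receptor genes LIFR (chr5:38474963-38608354, - strand), OSMR (chr5:38845858-38945596, + strand) and IL6ST (chr5:55935095-55994993, - strand) lie on chromosome 5. IL6R (chr1:154405193-154469450, + strand) and JAK1 (chr1:64833229-64966504, - strand) lie on chromosome 1, and STAT3 (chr17:42313324-42388568, - strand) and SOCS3 (chr17:78356778-78360077, - strand) on chromosome 17. IL11 is at chr19:55364389-55370463 (- strand) and LIF at chr22:30240447-30246851 (- strand).

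Regnase-1 is described as cutting mRNAs at short stem-loops in the 3′ UTR whose loop reads pyrimidine, purine, pyrimidine, and the members' 3′ UTRs were therefore searched for such letters. The search took the longest 3′ UTR of each gene in the GENCODE 29 annotation (GRCh38), on the transcript's own strand, and asked for 5 perfect base pairs closing a loop of 3 bases. It found a match in 4 of 10 members and in 24.0% of 19128 genes. With 6 pairs it found 0 of 10 members and 9.58% of genes. The members' 3′ UTRs ran from 429 bases (IL6) to 7641 bases (IL6ST), against a median of 1102 bases over all genes. The longest, those of IL6ST, LIFR (6632 bases) and IL6R (4070 bases), all held a match. A longer 3′ UTR gives more places for a match, so the shares are not like for like. IL6, whose mRNA Regnase-1 is known for cutting, had no match with 5 or 6 pairs. A missing match therefore does not show that an mRNA is spared. The 4 matches are shown because they are what the search found in these genes, with the loop in capitals. They lie at chr1:154468473-154468485 on the + strand (IL6R), chr5:55939943-55939955 on the - strand (IL6ST), chr5:38475584-38475596 on the - strand (LIFR) and chr17:78356954-78356966 on the - strand (SOCS3).
IL6R: tgaaaTATtttca
IL6ST: ggcaaTATttgcc
LIFR: ttaaaTATtttaa
SOCS3: tctttTATaaaga
A match is a description of letters and not a cleavage site, and the search allows no mismatch in the stem. The 4 genes with a match did not share a direction in A549 normal culture, where LIFR was higher and IL6R lower in the labelled knockout. In A549 oncosphere culture all 4 had a log2 fold change above 0 (IL6R 0.42, IL6ST 0.59, LIFR 2.44 and SOCS3 0.17), with IL6ST and LIFR called. So had every member without a match, from LIF at 0.01 to IL11 at 2.76, with IL11 called. The sign there did not set the matched genes apart. In H2023 the directions were mixed in both cultures. A link between these letters and the knockout differences was not tested.

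The mRNA of the targeted gene was lower in the labelled knockout in 1 of 4 comparisons and higher in the other 3. ZC3H12A was at 30.7 and 34.9 TPM in wild-type A549 in normal culture and at 16.9 and 19.9 TPM in the labelled knockout, a fall (limma, adjusted p = 0.00387; TPM, the deposited unit of level, scales reads by gene length and to the same total in every library). In the other 3 comparisons it was higher in both libraries labelled knockout than in both wild-type libraries, up to 94.6 and 69.2 TPM against 32.5 and 26.4 TPM in H2023 oncosphere culture. That last difference passed the threshold (limma, adjusted p = 4.50e-04), and those in A549 oncosphere and H2023 normal culture did not (0.304 and 0.0835). The authors' deposited table called the fall in A549 normal culture (adjusted p = 1.44e-04) and all 3 rises. Its adjusted p-values for the rises were 0.0171 in A549 oncosphere, 0.008 in H2023 normal and 3.26e-08 in H2023 oncosphere culture. The level of an mRNA does not show whether its gene was edited. The edit itself was not examined, so the libraries are called by their label throughout. TPM keeps no record of depth, so the number of reads behind the value of a single library is unknown. The authors give an average normalized count over the 4 libraries of a line and culture. For IL6 it was 5.22 in H2023 normal and 14.2 in H2023 oncosphere culture, against 104 and 146 in A549. The share of TPM taken by mitochondrially encoded genes was 10.3% to 18.7% for normal and 19.5% to 25.6% for oncosphere libraries. The summed level of 5 epithelial markers (KRT8, KRT18, KRT19, EPCAM, CDH1) was 1450 to 10700 TPM over the 16 libraries. Fibroblast markers summed to 1.58 to 10.1 TPM over the 3 of 6 analysed, leukocyte markers (CD14 and LYZ, 2 of 5) to 0.48 to 66.2 TPM, and endothelial PECAM1 (1 of 3) to 0 to 2.76 TPM. The lung lineage marker NAPSA was at 1.02 to 6.03 TPM. In bulk RNA, fewer cells of a type and less RNA per cell cannot be told apart.

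IL11 and LIFR held the largest knockout differences of the 10 members by limma, both in A549, where they were higher in the labelled knockout in normal and oncosphere culture. In A549 normal culture, limma (on log2(TPM + 1), adjusted p under 0.05 over all 18227 genes) called 4 of 10 members: IL11 and LIFR higher, LIF and IL6R lower. Over all genes it called 17.7%. The authors' deposited table called 5 of 10 members there, the same 4 and OSMR, against 22.1% of its genes. In A549 oncosphere culture limma called 3 members, IL11, LIFR and IL6ST, all higher, against 20.7% of all genes, and the authors' deposited table called the same 3 against 20.7% of its genes. In H2023 normal culture limma called 0 members, with 2 (LIF and OSMR) at an unadjusted p under 0.05, against 3.0% of all genes called. The authors' deposited table called 2 members in that comparison, LIFR and OSMR, both lower, against 10.8% of its genes. In H2023 oncosphere culture limma called IL6ST alone, higher, against 5.56% of all genes, while the authors' deposited table called 0 members against 5.07% of its genes. The median log2 fold change of the 10 members was 0.21, 0.41, -0.29 and -0.09 in these comparisons in turn, beside -0.03, 0.03, 0.01 and 0.06 over all genes.

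**Figure D1:**
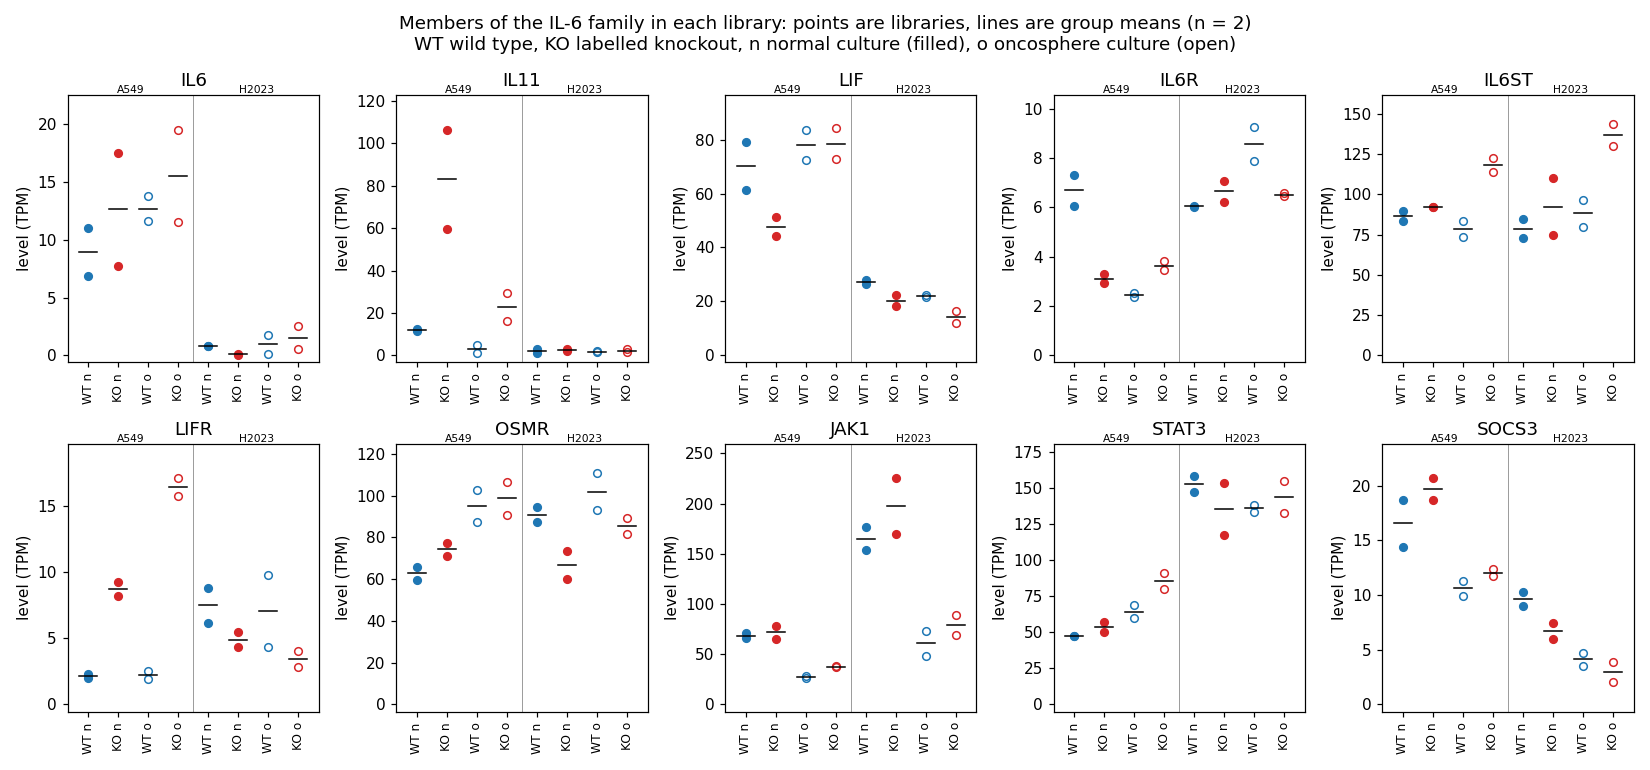
Level of each of the 10 members in TPM (vertical axis, linear) in every library, by line, genotype label and culture (horizontal axis); points are libraries and lines are means of 2 libraries. IL11 stands highest in the 4 A549 libraries labelled knockout and LIFR in the 2 of these from oncosphere culture, IL6 is at most 2.51 TPM in every H2023 library, and JAK1 is lower in oncosphere than in normal culture within each line and genotype.

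IL6 encodes the founding cytokine of the family, and its level followed the cell line. Wild-type A549 gave 11.0 and 6.83 TPM in normal culture, and the labelled knockout gave 17.5 and 7.73 TPM. The oncosphere values of A549 were 13.8 and 11.6 TPM for wild type, against 19.5 and 11.5 TPM for the labelled knockout. The genotype groups overlapped in both cultures, and replicate 1 was the higher library of every A549 group. In H2023, wild type gave 0.81 and 0.82 TPM in normal culture and 0.11 and 1.8 TPM in oncosphere culture. The labelled knockout of H2023 was listed at 0 and at 0.16 TPM in normal culture and gave 0.57 and 2.51 TPM in oncosphere culture. Every H2023 library lay below every A549 library. The wild-type mean of A549 was 11.0 times that of H2023 in normal culture. The log2 difference (H2023 minus A549) was -2.42 ± 0.49 in normal culture (standard error, limma adjusted p = 0.00192) and -2.95 ± 0.49 in oncosphere culture (standard error, limma adjusted p = 4.02e-04). The oncosphere value was -3.62 without the H2023 replicate 2 and -2.28 without the H2023 replicate 1. The knockout label did not change IL6 past the threshold in any of the 4 comparisons, where the log2 fold changes were 0.39, 0.23, -0.75 and 0.41, each with a standard error of 0.49. The lowest adjusted p of these 4 was 0.47 (limma). An antisense gene overlaps 20.7% of the exonic bases of IL6 (chr7:22725884-22732002, + strand, GRCh38). The library kit keeps strand, but whether the counting used it is not given in the sources used here.

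IL11 encodes interleukin-11, which signals through IL11RA and IL6ST, and of the 3 ligands among the members it differed most with the knockout label. In A549 normal culture it was at 11.7 and 12.4 TPM in wild type and at 106 and 59.8 TPM in the labelled knockout. In A549 oncosphere culture it was at 0.97 and 4.86 TPM in wild type and at 29.6 and 16.3 TPM in the labelled knockout. All 4 A549 libraries labelled knockout exceeded all 4 A549 wild-type libraries. The mean was 6.91 times that of wild type in normal culture, a log2 fold change of 2.63 ± 0.47 (standard error, limma adjusted p = 0.00279). In oncosphere culture the mean was 7.87 times that of wild type, with a log2 fold change of 2.76 ± 0.47 (standard error, limma adjusted p = 0.00131). Both calls held in 11 of 11 alternative settings, with log2 fold changes from 2.22 to 3.04 and from 1.97 to 3.55. The last 2 values are those without the wild-type oncosphere replicate 1 and replicate 2. The authors' deposited table gives log2 fold changes of 2.83 (adjusted p = 1.75e-24) and 2.89 (adjusted p = 0.0454). In H2023 the values were low and overlapped. Normal culture gave 1.34 and 2.86 TPM in wild type and 3.13 and 2.11 TPM in the labelled knockout, and oncosphere culture gave 2.02 and 1.37 TPM against 2.82 and 1.63 TPM. The log2 fold changes there were 0.25 (limma, adjusted p = 0.845) and 0.24 (limma, adjusted p = 0.83).

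The knockout difference of IL11 was tested between the lines. The line difference of the log2 fold change (H2023 minus A549) was -2.38 in normal culture (limma, adjusted p = 0.037) and -2.52 in oncosphere culture (limma, adjusted p = 0.0233), each with a standard error of 0.67. The normal-culture value was kept in 7 of 15 alternative settings. It was lost with a pseudocount of 0.1 (adjusted p = 0.0984), with the replicate block (0.0616), and without either wild-type A549 library (0.105 and 0.0734), wild-type H2023 replicate 2 (0.133), or labelled-knockout H2023 replicate 1 or 2 (0.0676 and 0.121). The oncosphere value was kept in 9 of 15 settings. It was lost without replicate 1 of wild-type A549 (0.0774), of labelled-knockout A549 (0.0834) or of wild-type H2023 (0.0661), without labelled-knockout H2023 replicate 2 (0.0794), in the 8 libraries alone (0.0744) and by the authors' deposited fold changes (0.18). Without the labelled-knockout A549 replicate 1, which held the highest IL11 value of all libraries, the normal-culture difference was -1.97 (limma, adjusted p = 0.125). IL11 also fell from normal to oncosphere culture in A549, with log2 differences of -1.94 in wild type (limma, adjusted p = 0.00565) and -1.81 in the labelled knockout (limma, adjusted p = 0.0157). Without the wild-type oncosphere replicate 1 the wild-type value was -1.15 (limma, adjusted p = 0.0684). Without the labelled-knockout normal replicate 1 or the labelled-knockout oncosphere replicate 2 the other value was -1.40 (limma, adjusted p = 0.134 and 0.125).

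LIF encodes leukaemia inhibitory factor, a ligand of LIFR and IL6ST, and of the 3 ligands among the members it had the highest wild-type level in both lines. Its level in A549 normal culture was 61.1 and 79.2 TPM in wild type and 44.1 and 51.4 TPM in the labelled knockout. In oncosphere culture the A549 libraries held 72.3 and 83.6 TPM in wild type and 72.7 and 84.2 TPM in the labelled knockout. The groups stood apart in normal culture and lay on each other in oncosphere culture. H2023 normal culture gave 27.8 and 26.3 TPM in wild type and 22.5 and 18.2 TPM in the labelled knockout, and oncosphere culture gave 22.5 and 21.6 TPM against 16.5 and 12.0 TPM. Both labelled-knockout libraries lay below both wild-type libraries in each H2023 culture. LIF fell with the label in A549 normal culture, with a log2 fold change of -0.54 ± 0.17 (standard error, limma adjusted p = 0.0478). That call was lost in 6 of 11 alternative settings: with libraries centred on their median (adjusted p = 0.0581), with TPM rescaled without mitochondrial genes (0.0818), in the 4 libraries alone (0.0894), without the wild-type replicate 2 (0.267), and without the labelled-knockout replicate 1 (0.229) or replicate 2 (0.0869). The log2 fold change was 0.01 in A549 oncosphere culture, -0.40 in H2023 normal culture (limma, adjusted p = 0.245) and -0.61 in H2023 oncosphere culture (limma, adjusted p = 0.0578). The wild-type mean of A549 was 2.59 times that of H2023 in normal culture (limma, adjusted p = 7.87e-05) and 3.54 times in oncosphere culture (limma, adjusted p = 7.43e-06). Every A549 library lay above every H2023 library.

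IL6R encodes the chain that binds IL-6, and in A549 its knockout difference depended on the culture. A549 in normal culture held 7.3 and 6.07 TPM in wild type and 2.92 and 3.28 TPM in the labelled knockout. Oncosphere culture of A549 gave 2.53 and 2.38 TPM in wild type and 3.44 and 3.84 TPM in the labelled knockout. The groups did not overlap in either culture. IL6R fell in normal culture, with a log2 fold change of -0.90 ± 0.16 (standard error, limma adjusted p = 0.00241), a call kept in 11 of 11 alternative settings. In oncosphere culture the log2 fold change was 0.42 (limma, adjusted p = 0.0777). The difference between the cultures was 1.33 ± 0.22 (standard error, limma adjusted p = 0.00499) and was kept in 15 of 15 alternative settings. It was the sole member called in that interaction in A549, against 9.71% of all genes, and in H2023 the same interaction called 0 members, with 0 at an unadjusted p under 0.05, against 0.00549% of all genes. In wild-type A549, IL6R fell by 1.15 on the log2 scale from normal to oncosphere culture (limma, adjusted p = 1.14e-04), while in the labelled knockout the culture difference was 0.18 (limma, adjusted p = 0.476).

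In H2023, neither knockout difference of IL6R passed the threshold. Normal culture gave 6.0 and 6.07 TPM in wild type and 6.23 and 7.07 TPM in the labelled knockout, and oncosphere culture gave 7.87 and 9.25 TPM against 6.57 and 6.44 TPM. The log2 fold changes were 0.12 (limma, adjusted p = 0.762) and -0.35 (limma, adjusted p = 0.229). The line difference of the knockout effect (H2023 minus A549) was 1.02 in normal culture (limma, adjusted p = 0.0121) and -0.77 in oncosphere culture (limma, adjusted p = 0.0339). The value in normal culture was lost in 3 of 15 settings, without the wild-type A549 replicate 1 (adjusted p = 0.0539), without the labelled-knockout H2023 replicate 2 (0.0519) and with the authors' deposited fold changes (0.129). The value in oncosphere culture was kept in 6 of 15 settings, with the adjusted p reaching 0.111 without the labelled-knockout A549 replicate 2. Without any of the other libraries of that comparison except the wild-type H2023 replicate 1, the adjusted p was 0.0543 to 0.103. With the replicate block it was 0.0598, and in the 8 libraries alone 0.0932.

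IL6ST encodes gp130, the chain that all these receptors share, and it was high in every library, from 72.8 to 144 TPM. Normal culture of A549 gave 83.3 and 89.7 TPM in wild type and 92.4 and 91.9 TPM in the labelled knockout. Oncosphere culture of A549 gave 83.2 and 73.5 TPM in wild type and 114 and 122 TPM in the labelled knockout. H2023 held 84.9 and 72.8 TPM in wild type and 110 and 74.5 TPM in the labelled knockout in normal culture, and 96.8 and 79.8 TPM against 144 and 130 TPM in oncosphere culture. The 4 oncosphere libraries labelled knockout were the 4 highest of all 16 for this gene. IL6ST rose with the label in oncosphere culture in both lines. The log2 fold change was 0.59 ± 0.16 in A549 (standard error, limma adjusted p = 0.0223) and 0.63 ± 0.16 in H2023 (standard error, limma adjusted p = 0.0433). The authors' deposited table gives 0.53 (adjusted p = 0.00225) in A549 and 0.46 (adjusted p = 0.0773) in H2023. Each call rested on all 4 libraries. In A549 the adjusted p was 0.0503 and 0.122 without wild-type replicate 1 or 2, and 0.0599 and 0.128 without labelled-knockout replicate 1 or 2. In H2023 it was 0.0544 and 0.193 without wild-type replicate 1 or 2, 0.179 and 0.107 without labelled-knockout replicate 1 or 2, and 0.233 in the 4 libraries alone. In normal culture the log2 fold changes were 0.09 and 0.20 in A549 and H2023 (limma, adjusted p = 0.747 and 0.57). The culture difference of the knockout effect did not pass the threshold in A549 (0.50, limma adjusted p = 0.197) or H2023 (0.43, limma adjusted p = 0.778).

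LIFR encodes the chain that binds LIF and pairs with IL6ST, and its knockout difference set the lines apart. Normal culture of A549 gave 2.31 and 2.01 TPM in wild type and 8.16 and 9.21 TPM in the labelled knockout. In oncosphere culture A549 held 2.51 and 1.95 TPM in wild type and 15.8 and 17.1 TPM in the labelled knockout. The A549 genotypes did not overlap in either culture, and the 2 oncosphere libraries labelled knockout were the highest of all 16. LIFR rose 4.02 times in mean TPM in normal culture, a log2 fold change of 1.62 ± 0.29 (standard error, limma adjusted p = 0.00289). It rose 7.37 times in oncosphere culture, a log2 fold change of 2.44 ± 0.29 (standard error, limma adjusted p = 1.10e-04). Both calls were kept in 11 of 11 alternative settings. In H2023 normal culture the values were 6.17 and 8.77 TPM in wild type and 5.46 and 4.33 TPM in the labelled knockout, and in oncosphere culture 4.3 and 9.8 TPM against 2.86 and 4.03 TPM. Wild type was higher in each H2023 culture without overlap, but its own replicates differed widely in oncosphere culture. The limma log2 fold changes were -0.51 (adjusted p = 0.397) and -0.78 (adjusted p = 0.142), while the authors' deposited table gives -0.99 (adjusted p = 2.72e-06) and -1.11 (adjusted p = 0.0532). The line difference of the knockout effect was -2.13 ± 0.41 in normal culture (standard error, limma adjusted p = 0.00655) and -3.22 ± 0.41 in oncosphere culture (standard error, limma adjusted p = 3.42e-04). Both were kept in 15 of 15 alternative settings. In wild type LIFR was 3.46 times higher in H2023 than in A549 in normal culture (limma, adjusted p = 0.00218). LIFR-AS1, an antisense gene, overlaps 5.3% of the exonic bases of LIFR.

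IL11 and LIFR rose together in A549, and the bases before their start sites were searched on both strands for motifs of 2 factor families tied to this pathway: STAT (TTCNNNGAA) and AP-1 (TGANTCA). Windows from RefSeq (GRCh38.p14) were matched for 9 of 10 members, not for LIF, with 1 start site for IL11 and 3 for LIFR. In the 250 bases before the start, STAT letters occur in 6.57% of 35116 windows and AP-1 letters also in 6.57%. The IL11 window holds AP-1 letters 96 bases before the start and no STAT letters. STAT letters stand in 2 of the 3 LIFR windows, 165 and 182 bases before the start. The windows of IL6, IL6R, IL6ST, OSMR, JAK1, STAT3 and SOCS3 hold neither motif. Windows follow the RefSeq start sites, which can differ from the ends of the gene spans given above. Those of SOCS3 (chr17:78360876-78361175 and chr17:78359618-78359917, - strand) do not cover the bases just before its span start at 78360077. Those bases were not searched. The 200 bases before the start are shown for the 3 windows of IL11 and LIFR with a match, with the match in capitals, at chr19:55370464-55370663, chr5:38595406-38595605 and chr5:38557468-38557667, all on the - strand. The LIFR windows come in the order of the start sites along the gene.
IL11: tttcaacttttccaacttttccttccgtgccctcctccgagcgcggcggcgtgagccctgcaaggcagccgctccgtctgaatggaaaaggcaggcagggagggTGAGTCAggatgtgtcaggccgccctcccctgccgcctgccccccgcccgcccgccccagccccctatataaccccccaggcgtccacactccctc
LIFR, upstream match: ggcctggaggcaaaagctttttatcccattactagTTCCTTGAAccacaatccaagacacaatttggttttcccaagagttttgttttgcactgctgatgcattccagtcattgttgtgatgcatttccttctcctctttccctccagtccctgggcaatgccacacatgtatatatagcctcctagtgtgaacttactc
LIFR, downstream match: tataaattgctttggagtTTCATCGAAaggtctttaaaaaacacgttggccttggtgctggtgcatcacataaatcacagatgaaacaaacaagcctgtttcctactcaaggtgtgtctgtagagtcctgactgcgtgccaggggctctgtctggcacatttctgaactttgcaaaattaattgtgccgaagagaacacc
IL11 and LIFR shared neither motif in these windows. Factor binding was not measured, and a match is a description of letters.

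OSMR encodes the chain that binds oncostatin M, and its levels spanned the narrowest range of the 10 members, 1.62 times between the lowest and the highest group mean. In A549 normal culture it was at 59.6 and 66.0 TPM in wild type and at 71.0 and 77.5 TPM in the labelled knockout. In A549 oncosphere culture it was at 87.3 and 103 TPM in wild type and at 91.0 and 106 TPM in the labelled knockout. The genotypes stood apart in normal culture and overlapped in oncosphere culture. H2023 normal culture gave 87.3 and 94.4 TPM in wild type and 73.7 and 60.0 TPM in the labelled knockout, and oncosphere culture gave 93.0 and 111 TPM against 89.2 and 81.6 TPM. Wild type was the higher group in each H2023 culture, with no overlap. None of the 4 knockout differences passed the threshold with limma (log2 fold changes 0.24, 0.05, -0.44 and -0.25, lowest adjusted p = 0.108). The authors' deposited table called OSMR higher in A549 normal culture (0.36, adjusted p = 0.0345) and lower in H2023 normal culture (-0.48, adjusted p = 0.0039). The difference between the lines in normal culture was -0.68 ± 0.19 (standard error, limma adjusted p = 0.0369). It was lost without any of 6 of the 8 libraries, with adjusted p-values of 0.057 to 0.142, and held without the wild-type A549 replicate 2 or the labelled-knockout H2023 replicate 1. OSMR rose from normal to oncosphere culture in wild-type A549, by 0.59 (limma, adjusted p = 0.00408), a call kept in 10 of 10 alternative settings.

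JAK1 encodes the kinase that these receptors activate, and it followed the culture in both lines and both genotypes. In A549 wild type it was at 65.8 and 71.1 TPM in normal culture and at 28.2 and 26.7 TPM in oncosphere culture. In the labelled knockout of A549 it was at 78.5 and 65.2 TPM and at 37.0 and 38.6 TPM. Every oncosphere library lay below every normal-culture library of its line. H2023 wild type gave 154 and 176 TPM in normal culture and 48.2 and 73.2 TPM in oncosphere culture, and the labelled knockout gave 226 and 170 TPM against 69.6 and 89.3 TPM. JAK1 fell in A549, with log2 differences of -1.29 in wild type and -0.90 in the labelled knockout (limma, adjusted p = 2.26e-04 and 0.00526). It fell in H2023 as well, with -1.46 in wild type and -1.30 in the labelled knockout (limma, adjusted p = 2.83e-04 and 3.27e-04). The falls in A549 wild type and in the H2023 labelled knockout were kept in 10 of 10 alternative settings. The fall in the A549 labelled knockout was lost without the normal-culture replicate 1 (-0.77, adjusted p = 0.0539), and that in H2023 wild type was lost in the 4 libraries alone (adjusted p = 0.0502). The knockout differences of JAK1 were 0.06, 0.45, 0.25 and 0.40, none past the threshold (limma, lowest adjusted p = 0.128). Wild-type H2023 held 2.41 times the JAK1 mRNA of wild-type A549 in normal culture (limma, adjusted p = 2.88e-04) and 2.21 times in oncosphere culture (limma, adjusted p = 6.42e-04).

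STAT3 encodes the transcription factor at the end of the chain, and its level set the lines apart. In A549 wild type it was at 47.4 TPM in each normal-culture library and at 68.7 and 59.9 TPM in oncosphere culture. In the labelled knockout of A549 it was at 50.1 and 57.1 TPM and at 79.8 and 90.8 TPM. Every A549 oncosphere library lay above every A549 normal-culture library. STAT3 rose from normal to oncosphere culture by 0.43 in wild type (limma, adjusted p = 0.022) and by 0.66 in the labelled knockout (limma, adjusted p = 0.00391). The rise in the labelled knockout was kept in 10 of 10 alternative settings. The rise in wild type was lost without normal-culture replicate 1 (adjusted p = 0.0839), normal-culture replicate 2 (0.0758) or oncosphere replicate 1 (0.33 on the log2 scale, adjusted p = 0.148). H2023 wild type gave 158 and 147 TPM in normal culture and 138 and 133 TPM in oncosphere culture, and the labelled knockout gave 153 and 117 TPM against 155 and 132 TPM. Every H2023 library exceeded every A549 library. In wild type the H2023 mean was 3.22 times that of A549 in normal culture (limma, adjusted p = 2.83e-06) and 2.11 times in oncosphere culture (limma, adjusted p = 5.33e-05). The knockout differences of STAT3 were 0.17, 0.40, -0.19 and 0.08, of which the largest had an adjusted p of 0.0522 (limma, A549 oncosphere culture).

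SOCS3 encodes the feedback inhibitor that STAT3 induces, and it ran opposite to STAT3 between the lines. In A549 wild type it was at 18.7 and 14.4 TPM in normal culture and at 11.3 and 9.91 TPM in oncosphere culture. In the labelled knockout of A549 it was at 18.7 and 20.7 TPM and at 12.4 and 11.7 TPM. H2023 wild type gave 8.98 and 10.3 TPM in normal culture and 3.54 and 4.75 TPM in oncosphere culture, and the labelled knockout gave 5.95 and 7.48 TPM against 3.86 and 2.09 TPM. In each line, every oncosphere library lay below every normal-culture library. SOCS3 fell with oncosphere culture in H2023, with log2 differences of -1.05 in wild type (limma, adjusted p = 0.00426) and -0.99 in the labelled knockout (limma, adjusted p = 0.00486). In the 4 libraries alone these had adjusted p-values of 0.0647 and 0.0893, and the latter was -0.66 without the labelled-knockout oncosphere replicate 2 (adjusted p = 0.0553). In A549 the log2 differences of -0.59 in wild type and -0.66 in the labelled knockout were at the threshold (limma, adjusted p = 0.0489 and 0.0496) and each was lost in 8 of 10 alternative settings, with adjusted p-values up to 0.281 (without the wild-type normal-culture replicate 1) and 0.206 (without the labelled-knockout normal-culture replicate 2). The replicate block gave 0.0727 and 0.0749. They were also lost without either wild-type oncosphere library (0.0882 and 0.192) and without the labelled-knockout normal replicate 1 (0.115), oncosphere replicate 1 (0.139) or oncosphere replicate 2 (0.171). In wild type A549 held 1.73 times the SOCS3 mRNA of H2023 in normal culture (limma, adjusted p = 0.0206) and 2.56 times in oncosphere culture (limma, adjusted p = 9.34e-04). The normal-culture call was lost without the A549 replicate 1 (adjusted p = 0.15) or the H2023 replicate 1 (0.106). The knockout differences were 0.24, 0.17, -0.46 and -0.40, none past the threshold (limma, lowest adjusted p = 0.307).

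**Figure D2:**
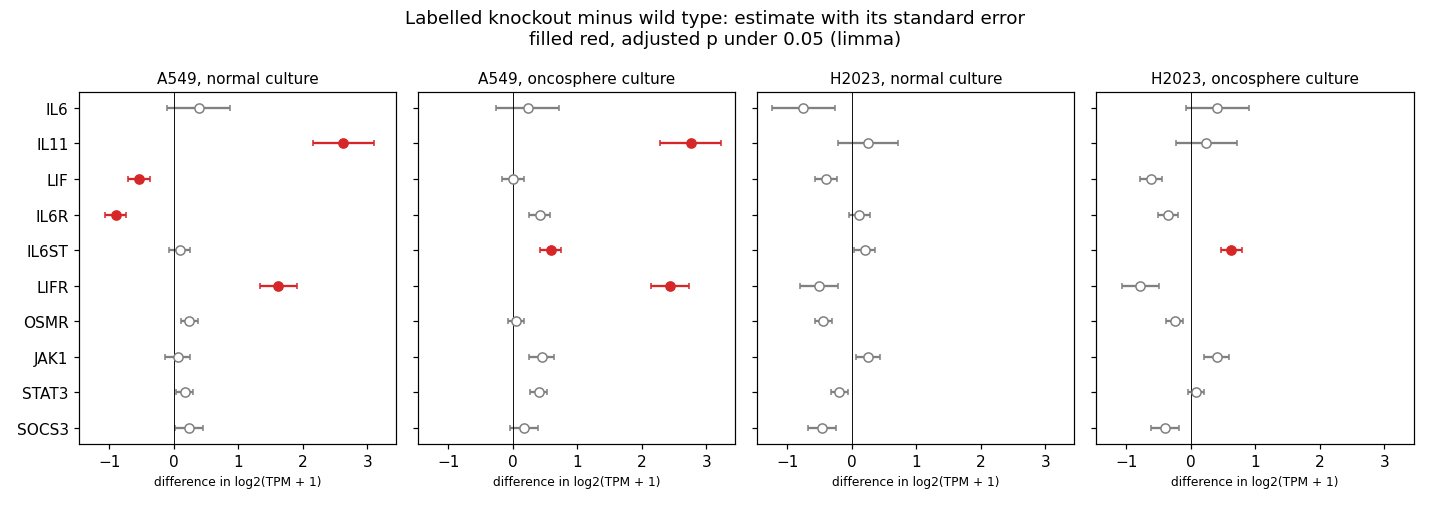
Difference between libraries labelled knockout and wild-type libraries for each member in log2(TPM + 1) (horizontal axis) in the 4 combinations of line and culture; points are limma estimates over all 16 libraries, bars are 1 standard error on each side, and filled red points have an adjusted p under 0.05. The IL11 and LIFR points lie at 1.62 to 2.76 in A549 and between -0.78 and 0.25 in H2023.

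The culture and line comparisons reuse the libraries of the knockout comparisons, so their counts are not independent of those above. Counted over the culture comparisons, limma called 6 of 10 members in wild-type A549 (OSMR and STAT3 higher in oncosphere culture, IL11, IL6R, JAK1 and SOCS3 lower), against 41.5% of all genes. It called 5 in the A549 labelled knockout (LIF and STAT3 higher, IL11, JAK1 and SOCS3 lower), against 22.4% of all genes. LIF rose there by 0.70 (limma, adjusted p = 0.0107), which was lost without the normal-culture replicate 1 (0.0894) or the oncosphere replicate 2 (0.0822). In H2023 wild type the count was 2 (JAK1 and SOCS3, both lower), against 27.4% of all genes. In the H2023 labelled knockout it was 4 (IL6ST higher, LIF, JAK1 and SOCS3 lower), against 32.5% of all genes. The IL6ST rise of 0.58 (limma, adjusted p = 0.0156) was lost without the normal-culture replicate 2 (0.30, adjusted p = 0.167), without the oncosphere replicate 1 (0.51, 0.0878) and in the 4 libraries alone (0.131). The LIF fall, at -0.49 (limma, adjusted p = 0.0434) was lost in 5 of 10 settings, among them centring on the library medians (-0.34, adjusted p = 0.156), rescaling without mitochondrial genes (-0.29, 0.285), and leaving out the normal-culture replicate 1 (-0.35, 0.272) or the oncosphere replicate 2 (-0.28, 0.33). Genes with a mean of at least 1 TPM had a median log2 difference of -0.24 and -0.17 in the H2023 culture comparisons in wild type and labelled knockout, and of -0.06 and -0.02 in A549. The falls of JAK1 and SOCS3 in H2023 were larger than this shift. The members' medians were -0.06, 0.34, -0.16 and -0.10, beside -0.01, -0.01, -0.18 and -0.12 over all genes.

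**Figure D3:**
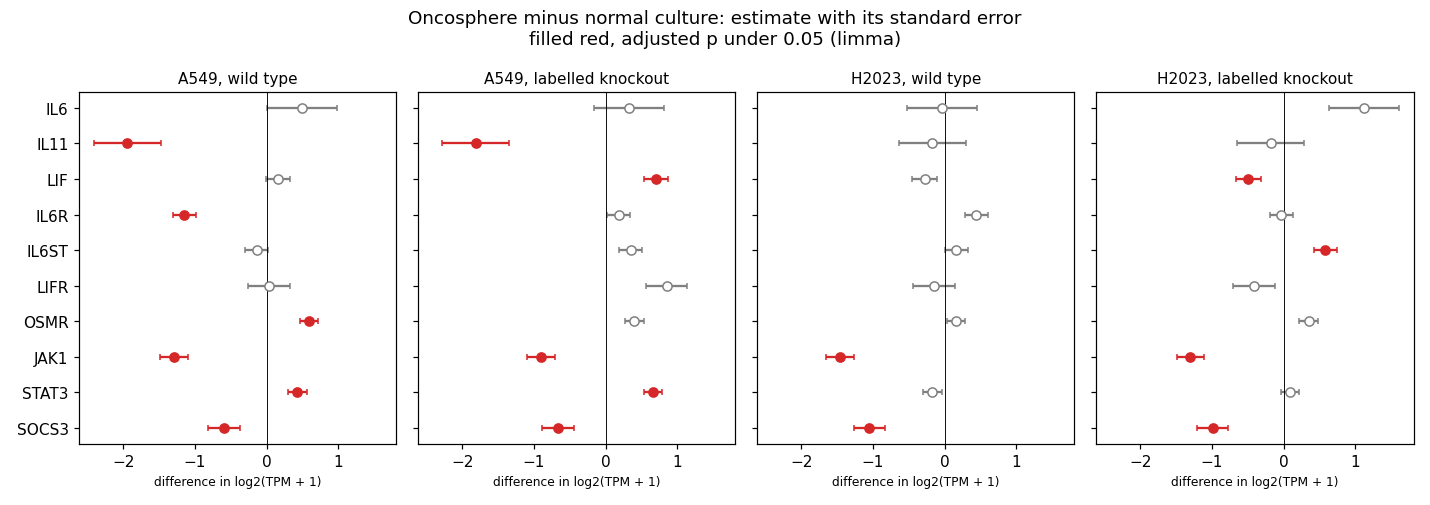
Difference between oncosphere (7 days) and normal culture (3 days) for each member in log2(TPM + 1) (horizontal axis) in the 4 combinations of line and genotype label; points are limma estimates over all 16 libraries, bars are 1 standard error on each side, and filled red points have an adjusted p under 0.05. JAK1 lies at -0.90 to -1.46 and SOCS3 at -0.59 to -1.05 in the 4 panels, while STAT3 passes the threshold in A549 alone, at 0.43 and 0.66.

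Between the wild-type lines, limma called 8 of 10 members in normal culture, against 41.5% of all genes, and 7 in oncosphere culture, against 47.8% of all genes. In both cultures H2023 held more JAK1, STAT3 and LIFR mRNA, and A549 more IL6, LIF and SOCS3. The LIFR call in oncosphere culture (log2 difference 1.23, limma adjusted p = 0.00413) was lost in the libraries of that comparison alone (adjusted p = 0.0624). That difference was 0.72 without the H2023 replicate 2 and 1.75 without the H2023 replicate 1. IL11 was also lower in H2023 in normal culture (limma, log2 difference -2.12, adjusted p = 0.00349) but not past the threshold in oncosphere culture (-0.34, adjusted p = 0.578). OSMR was higher in H2023 in normal culture (0.53, limma adjusted p = 0.00791), a call lost without the A549 replicate 1 (0.0623), without the H2023 replicate 2 (0.0554) and with libraries centred on their median (0.31, adjusted p = 0.0873). IL6R was 3.49 times higher in H2023 in oncosphere culture (limma, adjusted p = 1.68e-05), where the A549 level had fallen. IL6ST was the sole member called in neither culture, at -0.14 and 0.17 (limma, adjusted p = 0.538 and 0.426). The members' median log2 differences were -0.13 and 0.13, beside 0.12 and -0.01 over all genes. Among genes with a mean of at least 1 TPM the median was 0.16 in normal culture. Each line stands for itself, so these differences are between A549 and H2023. Over the knockout effect, the lines differed for 4 members in normal culture (IL11, LIFR, IL6R and OSMR), against 12.1% of all genes, and for 3 in oncosphere culture (LIFR, IL11 and IL6R), against 16.3% of all genes. LIFR alone was kept in all 15 alternative settings of both.

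The other genes of the pathway were taken as lists. Of the 6 other ligands listed, CNTF, CLCF1 and EBI3 were analysed. CLCF1, a ligand of the CNTF receptor, was at 17.2 to 40.2 TPM and was not called in any knockout comparison. EBI3, a subunit of interleukin-27 and interleukin-35, fell in the labelled knockout of A549 in normal culture, to 2.08 and 1.03 TPM against 19.2 and 13.2 TPM in wild type (log2 fold change -2.76, limma adjusted p = 4.41e-04). EBI3 was the 1 of 3 called there, with a list median of -0.10, against 17.7% of all genes called. In H2023 oncosphere culture limma also called it higher, against 5.56% of all genes. The authors' deposited table called 0 of the 3 there, against 5.07% of its genes. Of 3 analysed receptor chains, limma called IL11RA alone in the knockout comparisons, in A549 normal culture, against 17.7% of all genes. The authors' deposited table called 1 of the 3 in A549 normal and 1 in H2023 normal culture, against 22.1% and 10.8% of its genes. IL11RA, the partner chain of IL6ST for interleukin-11, rose in A549 normal culture to 9.01 and 9.06 TPM against 3.46 and 3.33 TPM in wild type (log2 fold change 1.19, limma adjusted p = 0.00574). ADAM10 and ADAM17, the proteases that shed IL6R, were called in 0 of 4 knockout comparisons by limma (0, 1, 2 and 1 of the 2 at an unadjusted p under 0.05). Over all genes limma called 17.7%, 20.7%, 3.0% and 5.56% in these comparisons in turn. The authors' deposited table called both in H2023 normal culture, against 10.8% of its genes.

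Among 7 other JAK and STAT genes, limma called 2 higher and 1 lower in A549 normal culture, 0 higher and 2 lower in A549 oncosphere culture, and 0 in either H2023 comparison, where 0 and 4 had an unadjusted p under 0.05 and the authors' deposited table called 0 and 0. Over all genes limma called 17.7%, 20.7%, 3.0% and 5.56% in the 4 comparisons in turn. The list medians were 0.10, 0.03, 0.01 and 0.41. STAT2, a transcription factor of interferon signalling, rose to 18.7 and 20.6 TPM against 8.25 and 8.91 TPM in wild type in A549 normal culture (log2 fold change 1.11, limma adjusted p = 0.00348). In A549 oncosphere culture STAT2 fell, to 36.8 and 32.5 TPM against 71.5 and 46.2 TPM in wild type (log2 fold change -0.72, limma adjusted p = 0.0269). STAT5A fell in both A549 cultures, to 1.02 and 0.55 TPM against 2.54 and 2.5 TPM in wild type and to 0.81 and 1.06 TPM against 2.4 and 3.17 TPM in wild type (limma, adjusted p = 0.00707 and 0.00613). STAT5A and STAT5B are near-identical neighbours, so reads may have been split between them. Of 10 negative regulators, 1 was higher and 1 lower in A549 normal culture, 2 higher and 1 lower in A549 oncosphere culture, and 1 higher in each H2023 culture, beside the same shares of all genes (17.7%, 20.7%, 3.0% and 5.56%), with medians of -0.17, 0.16, -0.08 and 0.06. PTPN1, a phosphatase of JAK kinases, rose in both A549 cultures (log2 fold changes 0.51 and 0.82, limma adjusted p = 0.00705 and 2.20e-04). PTPN2, a related phosphatase, fell in A549 normal culture (-0.58, limma adjusted p = 0.00894). PTPRK, a receptor-type phosphatase, fell in A549 oncosphere culture (-0.60, limma adjusted p = 0.0407) and rose in H2023 oncosphere culture (0.74, limma adjusted p = 0.0415).

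A list of 25 genes known as STAT3 targets, of which 23 were analysed, showed no shared direction with the knockout label. limma called 2 higher and 4 lower in A549 normal culture, 3 higher and 3 lower in A549 oncosphere culture, 0 higher and 1 lower in H2023 normal culture, and 2 higher and 0 lower in H2023 oncosphere culture, beside 17.7%, 20.7%, 3.0% and 5.56% of all genes. The authors' deposited table called 12, 9, 6 and 3 of the 23 in turn, against 22.1%, 20.7%, 10.8% and 5.07% of its genes. Their median log2 fold changes were -0.08, -0.11, -0.23 and 0.15, beside -0.03, 0.03, 0.01 and 0.06 over all genes. ICAM1, an adhesion molecule, fell in A549 normal culture to 2.65 and 1.15 TPM against 10.9 and 9.25 TPM in wild type (limma, adjusted p = 0.0157), and CCND1, a cyclin of the G1 phase, to 65.3 and 48.0 TPM against 181 and 157 TPM in wild type (limma, adjusted p = 5.01e-04). HIF1A, the hypoxia-inducible factor subunit, rose with the label in oncosphere culture in both lines, to 499 and 516 TPM against 244 and 225 TPM in wild type in A549 (limma, adjusted p = 6.14e-04) and to 455 and 336 TPM against 242 and 185 TPM in wild type in H2023 (limma, adjusted p = 0.0126). LBP, an acute-phase protein, fell in A549 oncosphere culture to 22.1 and 15.6 TPM against 42.9 and 53.6 TPM in wild type (limma, adjusted p = 0.042). CEBPB, a transcription factor of the acute-phase response, fell in H2023 normal culture to 64.4 and 72.0 TPM against 158 and 117 TPM in wild type (limma, adjusted p = 0.00465), and its relative CEBPD rose in H2023 oncosphere culture to 72.0 and 78.2 TPM against 44.9 and 36.5 TPM in wild type (limma, adjusted p = 0.044).

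With oncosphere culture, limma called 12 genes of the same list higher and 4 lower in wild-type A549 and 8 higher and 3 lower in the A549 labelled knockout, against 41.5% and 22.4% of all genes called in either direction. The list medians were 0.59 and 0.42, beside -0.01 and -0.01 over all genes. The acute-phase genes SERPINA3, HP and LBP were among those higher in both. In H2023 the counts were 4 higher and 7 lower in wild type and 7 higher and 5 lower in the labelled knockout, against 27.4% and 32.5% of all genes called. The list medians there were -0.22 and 0.39, beside -0.18 and -0.12 over all genes. BIRC5, an inhibitor of apoptosis expressed in dividing cells, and PIM1, a kinase, were lower in oncosphere culture in all 4 comparisons. FOS was higher in oncosphere culture in all 4. In the same comparisons STAT3 mRNA had risen in A549, and SOCS3 mRNA had fallen in both lines. STAT3 activity was not measured.

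Markers of cell identity moved with the label in A549 as well. In normal culture limma called 4 of 5 epithelial markers lower in the labelled knockout (CDH1, KRT18, KRT8 and KRT19), against 17.7% of all genes called. Their summed level with EPCAM was 7420 to 7630 TPM in wild type and 1450 to 2520 TPM in the labelled knockout. The lung lineage marker NAPSA was called higher there by limma, at a mean of 3.34 TPM against 1.115 TPM in wild type, and the authors' deposited table did not call it. In A549 oncosphere culture 2 of the 5 epithelial markers were lower in the labelled knockout, against 20.7% of all genes called. KRT19 fell there to 3.29 and 5.92 TPM against 46.8 and 101 TPM in wild type (log2 fold change -3.68, limma adjusted p = 1.75e-05). EPCAM fell to 0.82 and 1.03 TPM against 9.4 and 7.94 TPM in wild type (log2 fold change -2.33, limma adjusted p = 1.52e-04). The summed level, most of it KRT8 and KRT18, was 5230 to 6570 TPM in wild type and 4990 to 7190 TPM in the labelled knockout. The fibroblast markers COL1A1, LUM and PDGFRA summed to at most 4.07 TPM in the A549 libraries labelled knockout, and limma called none of the 3 in a knockout comparison (0, 1, 1 and 1 of the 3 at an unadjusted p under 0.05). The authors' deposited table called 1 of the 3 in A549 oncosphere, H2023 normal and H2023 oncosphere culture, against 20.7%, 10.8% and 5.07% of its genes, and 0 in A549 normal culture. LYZ fell in the labelled knockout of A549 oncosphere culture, to 0.28 and 0 TPM against 18.6 and 6.81 TPM in wild type (limma, adjusted p = 9.07e-05). PECAM1 fell there to 0.63 and 0.81 TPM against 2.76 and 1.77 TPM in wild type (limma, adjusted p = 0.00464). In H2023 normal culture limma called 0 of the 5 epithelial markers, against 3.0% of all genes, and the authors' deposited table called 3, against 10.8% of its genes. In H2023 oncosphere culture KRT18 and KRT8 were higher in the labelled knockout (log2 fold changes 1.15 and 1.00, limma adjusted p = 0.0263 and 0.0294), against 5.56% of all genes called, beside the rise of IL6ST. The part of these marker differences in the members' values was not tested.

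For 5 members the genes of most similar pattern were taken by Pearson r of log2(TPM + 1) over the 16 libraries, among 14022 genes with a symbol and a mean of at least 1 TPM. They are a description, since the libraries share lines and clones and much of the pattern is the difference between A549 and H2023. For IL6 they were HCN2, FAM3A and TPT1 (r = 0.961 to 0.962), and for LIF PDHA1, MRS2 and TMEM187 (r = 0.97 to 0.983). For STAT3 they were SLC35E2A, FAM102A and IFITM3 (r = 0.967 to 0.971), and for SOCS3 SMYD2, SMYD3 and AHCY (r = 0.948 to 0.973). IL6ST, which did not separate the lines, had lower values, with C11orf49, NPIPB2 and TGFBR2 at r = 0.815 to 0.84.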

How the data were processed

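Each of the 4 deposited tables holds the 4 libraries of a line in a given culture. The value per library was read as TPM, since each column of the deposited tables sums to nearly the same total, between 991838 and 998125. Beside it the authors list the average normalized count of the table (a signal), a log2 fold change with its standard error, a test score, and a p-value with its adjusted p-value, under the column names of DESeq2, per the file headers. That score has the opposite sign to the fold change, so directions came from the fold change. HISAT2, StringTie and GRCh38 are named in the submitters' processing notes, and the counting program is not given in the sources used here. Libraries came from a stranded TruSeq mRNA kit, per the labels' protocols. The line of a library was read from its table's name. Identifiers in several rows (119 per table, with identical values) were used once, leaving 18227 genes.

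Differences were tested on log2(TPM + 1) by limma 3.58.1 (R 4.3.3), allowing for a mean-variance trend, with 8 group means over all 16 libraries, 8 residual degrees of freedom, no filter on low values, two-sided, Benjamini-Hochberg over 18227 genes, threshold 0.05. A fold change on this scale understates that of low genes. Interactions are differences of 2 such contrasts. The fit was tested on simulated data with normally distributed noise and effects added only to genes of higher level. That test does not cover low genes, such as IL6 in H2023, or the spread between clones. Depth per library is unknown, so no counting interval is given. Alternatives were a pseudocount of 0.1, only genes with a mean of at least 1 TPM, median centring, TPM rescaled without the 15 mitochondrially encoded genes, the libraries of a comparison alone, a replicate block, leaving out each library, and the authors' deposited adjusted p.

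The members, the gene lists and the tests were chosen with earlier results of these data known. Outside the 10 members and ZC3H12A, the genes named are, for each list and knockout comparison, at most the 2 with the largest fold change among those called by both limma and the authors, and the 3 most alike for 5 members. Genes named for oncosphere culture, and CLCF1, ADAM10, ADAM17, NAPSA and the summed markers, were named outside that rule after their values were seen. Some genes of these pathways are not reported here.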

Additional observations from a re-analysis of the deposited data

Results flagged for a closer look

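The knockout effect, libraries labelled knockout minus wild type on the log2(TPM + 1) scale, differed between lines or cultures for 4 members by the interaction term of limma (adjusted p under 0.05). For LIFR the line difference (H2023 minus A549) was -2.13 in normal culture and -3.22 in oncosphere culture, from a rise in A549 and values of -0.51 and -0.78 in H2023. For IL11 the line difference was -2.38 in normal culture and -2.52 in oncosphere culture. For IL6R it was 1.02 in normal culture and -0.77 in oncosphere culture, and the culture difference in A549 (oncosphere minus normal) was 1.33. For OSMR the line difference in normal culture was -0.68.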

How the results depend on the processing

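For the 48 member values called by limma and 3 called by the authors' deposited table alone, alternatives gave 561 values, of which 91 lost the threshold, 3 gained it, 0 reversed and 467 kept direction and call. Of the 92 member values not called by limma, 14 were called under some alternative (29 of 1112 values), 0 of them with the other sign. For the knockout effect by limma these were STAT3 in A549 oncosphere culture and LIF in H2023 oncosphere culture, both with median centring and with the replicate block, LIF also without the labelled-knockout replicate 1, and LIFR in H2023 oncosphere culture without the wild-type replicate 1. Counts of members called moved as follows. In H2023 normal culture the knockout count of 0 became 2 by the authors' deposited adjusted p. In H2023 oncosphere culture the count of 1 became 2 with median centring and 2 with the replicate block, and 0 with the libraries of the comparison alone and 0 by the authors' deposited adjusted p. With those libraries alone the culture counts were 0 in H2023 wild type and 1 in the H2023 labelled knockout, and the line difference of the knockout effect in oncosphere culture called 1. Leaving out each library gave 0 to 1 members for the knockout effect in H2023 oncosphere culture, 3 to 5 for culture in A549 wild type, 1 to 4 in the A549 labelled knockout and 2 to 4 in the H2023 labelled knockout, 1 to 3 for the line difference of the knockout effect in normal culture and 1 to 3 in oncosphere culture. A library left without its replicate was assumed to vary like the other groups. Same-numbered libraries shared deviations with r = 0.075, 0.131, 0.027 and 0.461 over genes in the 4 tables, with 2 pairs in each, so the numbers were not taken as pairs. The replicate block ended the SOCS3 culture calls in A549 and the IL11 (normal) and IL6R (oncosphere) line differences, raised the counts to 4 for the knockout effect in A549 oncosphere culture and to 6 and 5 for culture in the A549 and H2023 labelled knockout, and ended no other member call. With 2 libraries a group and no depth per library, IL6 in H2023 and other values near 0 carry little information.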
